A study of Mus musculus with 8 samples.

Results

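Dbi and 6 genes related to it by family or by binding were described in the dorsal cortex of mouse embryos: the acyl-CoA-binding domain genes Acbd3, Acbd4, Acbd5, Acbd6 and Acbd7, and Tspo, which encodes a receptor for Dbi peptides. These 7 genes, of 23284 gene symbols in the files, were chosen by their names, and the set was selected on Dbi being lower in the libraries labelled ErbB4-/-. The genotype difference of Dbi is therefore given as a description without a test, and only the other genes were tested. Of the 7 genes, 6 passed the filter on low counts that left 14696 genes for testing, and Acbd7 did not.

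With its RNA sequencing, the study asked which genes differ in cortex that lacks ErbB4. ErbB4 is a receptor tyrosine kinase of the EGF receptor family that binds neuregulins. RNA was sequenced from 4 WT and 4 ErbB4-/- dorsal cortices of C57BL/6 embryos at E15.5, after the meninges and the ganglionic eminences had been removed. The ErbB4-/- mice lack the receptor outside the heart and carry a transgene that expresses ErbB4 from the cardiac alpha-MHC promoter, without which they die as embryos. Both genotypes came from homozygous breeding, so litters and genotype cannot be told apart, and the labels do not say whether a library is 1 embryo. The p-values measure only the spread between these libraries.

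Dbi, also called acyl-CoA-binding protein or diazepam binding inhibitor, is a small cytosolic protein that carries long-chain acyl-CoA esters, the activated form of fatty acids, between the enzymes that make and use them. Peptides cut from it act outside the cell on the benzodiazepine site of GABA-A receptors and bind Tspo in the outer mitochondrial membrane. In the embryonic brain Dbi is known as a gene of radial glia and other progenitors, and in the adult brain of astrocytes. The Acbd proteins share the acyl-CoA-binding domain but most are larger and sit on organelles. Acbd3 works at the Golgi, Acbd4 and Acbd5 tether peroxisomes to the endoplasmic reticulum, Acbd6 carries ankyrin repeats and is linked to protein myristoylation, and Acbd7 is a small protein of the same layout as Dbi.

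All positions are on mm9 (NCBIM37), the build used by the authors. Dbi lies on the minus strand at chr1:122009857-122017655 and has 8 annotated transcripts, 52.9 Mb from Erbb4 on the same chromosome. Acbd6 (chr1:157405250-157534363) and Acbd3 (chr1:182656174-182684334) are also on chromosome 1, at 88.3 and 113.5 Mb from Erbb4. Acbd4 is at chr11:102962996-102973514, Tspo at chr15:83394003-83404631, Acbd7 at chr2:3253440-3258265 and Acbd5 at chr2:22923688-22970030. These 6 genes are all on the plus strand.

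The start of Dbi is shown because a second gene, 3110009E18Rik, begins beside it on the opposite strand. The sequence is chr1:122017626-122017793 on the minus strand, with the 108 bases between the annotated starts in capitals and 30 bases of each gene in lower case, the 3110009E18Rik side first.
Dbi start region: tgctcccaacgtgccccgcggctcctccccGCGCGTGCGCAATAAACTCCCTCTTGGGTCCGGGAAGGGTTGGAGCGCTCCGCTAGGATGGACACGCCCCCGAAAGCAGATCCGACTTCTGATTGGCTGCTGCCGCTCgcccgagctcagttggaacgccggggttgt
The gap is 63.0% G and C and holds CCAAT on the opposite strand, beginning at base 92 of the gap. In the window from 250 bases before to 50 bases after the annotated start, searched on both strands, Dbi and Acbd7 held CCAAT, which occurs in 38.0% of 22030 mouse promoters of that length. Acbd3, Acbd4 and Tspo held GGGCGG, found in 43.5% of those promoters. None of the 7 held TATAAA, found in 13.4%, and Acbd5 and Acbd6 held none of the 3 motifs.

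The coding sequences of Dbi and Acbd7 are shown because these are the pair of small proteins of the family and because reads from near-identical copies could be counted for the wrong gene. Both are reference sequences of the annotated transcripts Dbi-001 (264 bases) and Acbd7-001 (267 bases), and capitals mark the longest run of bases they share.
Dbi-001: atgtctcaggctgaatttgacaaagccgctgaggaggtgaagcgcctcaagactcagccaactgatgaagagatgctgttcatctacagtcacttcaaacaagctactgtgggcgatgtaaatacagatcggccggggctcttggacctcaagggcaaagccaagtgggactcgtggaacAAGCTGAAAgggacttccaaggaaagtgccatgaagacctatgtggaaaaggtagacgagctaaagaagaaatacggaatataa
Acbd7-001: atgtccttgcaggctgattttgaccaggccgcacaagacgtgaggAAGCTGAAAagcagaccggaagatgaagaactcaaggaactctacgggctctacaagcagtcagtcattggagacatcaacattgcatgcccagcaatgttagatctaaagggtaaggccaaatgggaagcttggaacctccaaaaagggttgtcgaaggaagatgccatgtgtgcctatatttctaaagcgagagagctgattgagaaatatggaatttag
Over 263 aligned bases, 165 (62.7%) were identical, and the longest shared run was 9 bases against a read length of 50 bases. No 50-base window of any of the 7 genes' transcripts occurred in a transcript of another of the 7. Of the 520 windows of Dbi-001, 24 (4.62%) also occurred elsewhere in the genome (copies on 1 chromosome), and for Acbd5-001 this held for 289 of 3671 windows (7.87%). The transcripts of Acbd3, Acbd4, Acbd6, Acbd7 and Tspo had no such window. The libraries do not keep the strand, but the annotated Dbi and 3110009E18Rik do not overlap.

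Several facts of the libraries bear on what follows. Between 28205703 and 48871480 reads were counted per library. Erbb4 itself was not lower in the libraries labelled ErbB4-/- (22.4 ± 1.92 CPM, SD, n = 4) than in WT (18.3 ± 6.81 CPM, SD, n = 4), so its counts over the whole gene do not check the labels, and the genotypes below are those of the labels. WT replicate 1 stood apart on the first principal component, at -38.9 where none of the other 7 libraries was below -6.1. Its deviations from the mean of all libraries also went with transcript length, with a Spearman rho over 14253 genes of -0.58 against 0.0378 to 0.223 in the others. Sex-linked genes differed too: Xist was at 983, 1610 and 1690 CPM in WT replicates 1 to 3 and at 2.70 to 3.82 CPM in WT replicate 4 and every library labelled ErbB4-/-. Their part in the results was not tested beyond the values given beside them.

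Dbi was lower in every library labelled ErbB4-/- than in any WT library. In CPM, which divides each count by its library's total after TMM adjustment, Dbi stood at 289, 171, 209 and 207 in WT replicates 1 to 4 and at 146, 157, 150 and 153 in the libraries labelled ErbB4-/-. The WT values were spread, with WT replicate 1 high and WT replicate 2 low, whereas the libraries labelled ErbB4-/- lay between 146 and 157 CPM. These are 5345 to 8108 reads per WT library and 4811 to 7190 reads per library labelled ErbB4-/-. The mean was 219 ± 49.7 CPM in WT (SD, n = 4) and 151 ± 4.61 CPM in the libraries labelled ErbB4-/- (SD, n = 4), 31.0% lower. The coefficient of variation was 22.7% in WT and 3.05% in the libraries labelled ErbB4-/-, against 1.18% and 1.31% from counting alone. The fitted log2 fold change was -0.53 (SE 0.123). The gap between the groups was narrow, the lowest WT library being 1.09 times the highest library labelled ErbB4-/-, while the highest WT library was 1.69 times the lowest.

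The size of the Dbi difference rested in part on WT replicate 1. Without it the WT mean was 196 ± 21.2 CPM (SD, n = 3), the mean of the libraries labelled ErbB4-/- was 22.7% lower and the log2 fold change was -0.37 (SE 0.0638). With each library's trend with transcript length removed it was -0.41 (SE 0.0646), and with the Xist level as a covariate it was -0.49 (SE 0.201). WT replicate 4, which has the Xist level of the libraries labelled ErbB4-/-, was at 207 CPM of Dbi, and the mean of the libraries labelled ErbB4-/- was 0.73 of this value. Without WT replicate 2, the lowest WT library, the log2 fold change was -0.64 (SE 0.106).

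**Figure D1:**
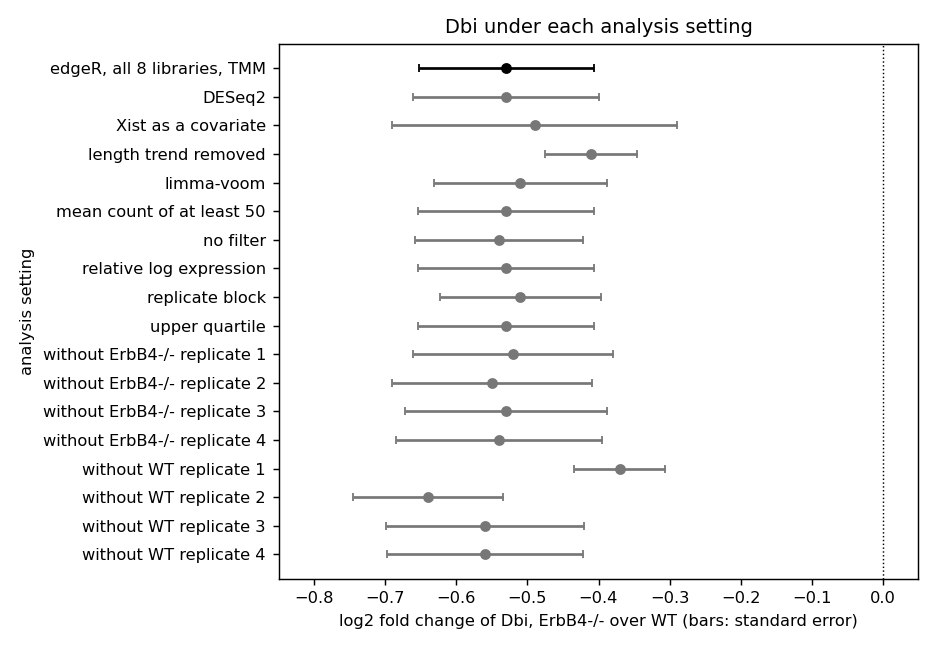
Log2 fold change of Dbi in libraries labelled ErbB4-/- over WT (horizontal axis) under each analysis setting (vertical axis), with bars of 1 standard error; black marks the setting reported first. All points lie below 0, between -0.64 without WT replicate 2 and -0.37 without WT replicate 1.

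Of the 7 genes, Dbi was the only one whose genotypes did not overlap. Over all 14696 genes tested, 1.48% had every library labelled ErbB4-/- below every WT library and 1.86% had every one above, and since Dbi was chosen for this pattern nothing is read from its count. At an adjusted p under 0.05 (edgeR's quasi-likelihood test with Benjamini-Hochberg adjustment over all genes tested), 4 genes were called in either direction, 0.0272% of those tested, and none of the 7 genes was among them. DESeq2 called 24 genes, Dbi among them. Neither outcome for Dbi is a test here, as this contrast chose it. Dbi was well expressed, with 899 of 14696 tested genes (6.12%) having a higher mean WT CPM.

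**Figure D2:**
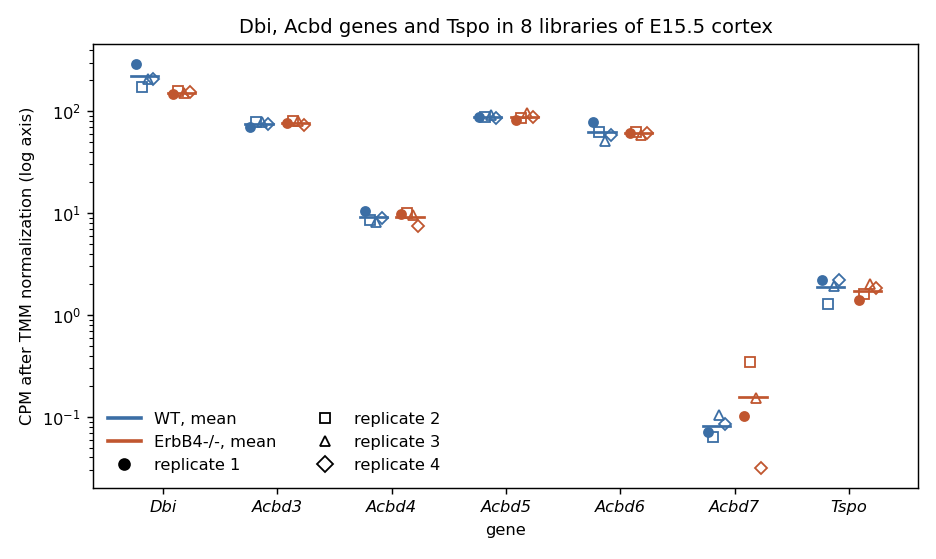
CPM after TMM normalization (log axis) of Dbi, the Acbd genes and Tspo in each of the 8 libraries, with WT in blue, libraries labelled ErbB4-/- in orange, a symbol for each replicate number and lines at the group means. Dbi is apart in the 2 groups, at 171 to 289 CPM in WT and 146 to 157 CPM in the libraries labelled ErbB4-/-, and the groups overlap in the other 6 genes.

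The transcripts of the organelle members differed little between the genotypes. Acbd3, the Golgi member, which binds giantin and recruits the lipid kinase Pi4kb, was at 70.4, 78.4, 77.7 and 74.7 CPM in WT and at 76.8, 79.3, 80.2 and 72.9 CPM in the libraries labelled ErbB4-/-. The groups overlapped throughout, with WT replicate 1 the lowest library. The log2 fold change of Acbd3 was 0.04 (95% interval -0.08 to 0.15, adjusted p = 0.887 in edgeR). Acbd5, the peroxisomal tether that also binds very-long-chain acyl-CoA, was at 87.3, 86.7, 92.0 and 85.1 CPM in WT and at 82.6, 84.8, 95 and 87.7 CPM in the libraries labelled ErbB4-/-. The means of Acbd5 were 87.8 ± 2.98 and 87.5 ± 5.38 CPM (SD, n = 4 each), and the 95% interval of its log2 fold change ran from -0.12 to 0.11 (adjusted p = 0.99 in edgeR).

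Acbd4, the second peroxisomal tether, was much lower, at 10.5, 8.6, 8.18 and 8.97 CPM in WT and 9.74, 10, 9.58 and 7.5 CPM in the libraries labelled ErbB4-/-. Its groups overlapped, with the library labelled ErbB4-/- replicate 4 the lowest of all, and its log2 fold change was 0.03 (95% interval -0.2 to 0.26, adjusted p = 0.965 in edgeR). Acbd6 was at 78.3, 62.2, 51.0 and 58.9 CPM in WT and at 61.1, 62.2, 58.1 and 60.8 CPM in the libraries labelled ErbB4-/-. As with Dbi, WT replicate 1 was the highest library and the WT values were more spread than those of the libraries labelled ErbB4-/- (62.6 ± 11.5 against 60.5 ± 1.76 CPM, SD, n = 4 each). Unlike Dbi, the lowest library was also a WT library, replicate 3. The log2 fold change of Acbd6 was -0.05 (95% interval -0.26 to 0.16, adjusted p = 0.929 in edgeR), and its sign turned when WT replicate 1 was left out (0.08). None of the 5 tested genes other than Dbi had an unadjusted p under 0.05 in edgeR, DESeq2 or limma-voom.

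Acbd7, the gene most like Dbi in layout, was close to absent at this age. Its files held 2, 2, 4 and 3 reads in WT and 5, 12, 6 and 1 reads in the libraries labelled ErbB4-/-, which is 0.0642 to 0.104 CPM and 0.0318 to 0.345 CPM. The highest and the lowest library were both labelled ErbB4-/-. It was left out of the fit for its low counts, and an exact two-sided permutation test of its CPM gave p = 0.371, where 4 against 4 libraries cannot go below 0.0286.

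Tspo, the mitochondrial receptor for Dbi peptides, was low in all libraries, at 2.21, 1.28, 1.93 and 2.19 CPM in WT and 1.4, 1.61, 2.02 and 1.84 CPM in the libraries labelled ErbB4-/- (40 to 79 reads). The groups overlapped, with the lowest and the highest value both in WT. The fitted difference was -0.15 on the log2 scale (SE 0.21, adjusted p = 0.871 in edgeR). The 95% interval ran from -0.56 to 0.26. The coefficient of variation was 22.8% in WT and 15.8% in the libraries labelled ErbB4-/-, against 12.6% and 12.4% from counting alone. Without WT replicate 2, the lowest WT library, the fitted difference was -0.30, and without the library labelled ErbB4-/- replicate 1 it was -0.06. Tspo2, a homologue known from red blood cell precursors, was at 1.01 ± 0.457 CPM in WT and 0.97 ± 0.236 CPM in the libraries labelled ErbB4-/- (SD, n = 4 each).

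Per length, Dbi stood well above the others. In CPM per kilobase of the longest coding transcript, Dbi was at 370 in WT and 255 in the libraries labelled ErbB4-/-, followed by Acbd6 at 42.1 and 40.7. Acbd5 (23.6 and 23.5) and Acbd3 (21.7 and 22.3) came next. Their values lay close together, at 22.9 to 24.7 for Acbd5 and 20.3 to 22.6 for Acbd3 in WT, and overlapped in the libraries labelled ErbB4-/- (22.2 to 25.5 and 21.0 to 23.1). The other neighbours in this order did not overlap in either genotype. Below them were Acbd4 (4.35 and 4.42), Tspo (2.23 and 2.01) and Acbd7 (0.153 and 0.297). Of the CPM summed over the 7 genes, Dbi made up 53.8, 42.0, 47.5 and 47.4% in WT and 38.6, 39.7, 37.9 and 39.8% in the libraries labelled ErbB4-/-. The other 6 genes together gave 237 ± 8.68 CPM in WT and 236 ± 6.58 CPM in the libraries labelled ErbB4-/- (SD, n = 4 each), so the share of Dbi moved with Dbi itself.

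The genes around Dbi on chromosome 1 were then listed, the 5 nearest tested genes on each side. 3110009E18Rik, which starts 108 bases away on the other strand, was at 4.35, 3.08, 2.89 and 3.05 CPM in WT and at 3.61, 2.59, 3.51 and 3.53 CPM in the libraries labelled ErbB4-/-. WT replicate 1 was the highest library, as for Dbi, but the other libraries of the 2 genotypes were mixed. The fitted difference was -0.01 on the log2 scale (SE 0.172, adjusted p = 0.994 in edgeR). On its far side, Steap3, a metalloreductase of iron uptake, had -0.24 (SE 0.162) and C1ql2, a secreted synaptic protein, had 0.27 (SE 0.393). Insig2, which holds back sterol synthesis, had -0.01 (SE 0.0635) and Ccdc93 had 0.04 (SE 0.0928), at 1180 and 1310 kb from Dbi. On the other side, Tmem37 had -0.20 (SE 0.259), the secretin receptor gene Sctr -0.13 (SE 0.352), Tmem177 -0.15 (SE 0.0794), the tyrosine phosphatase gene Ptpn4 0.18 (SE 0.187) and Epb4.1l5 -0.03 (SE 0.0936). The genotypes overlapped in all 10 neighbours and the smallest adjusted p was 0.81. Gm101, Marco and En1, which also lie among them, had 45, 24 and 5 reads over the 8 libraries and were not tested.

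**Figure D3:**
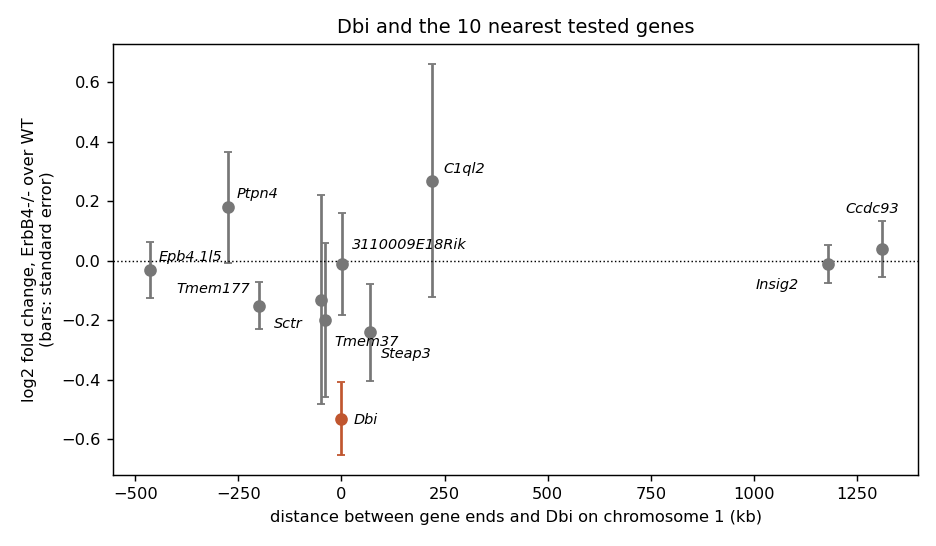
Log2 fold change of Dbi (orange) and its 10 nearest tested genes (grey) in libraries labelled ErbB4-/- over WT (vertical axis, bars of 1 standard error) against the distance in kb between gene ends along chromosome 1. Dbi lies at -0.53 and the neighbours between -0.24 and 0.27.

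The genes whose levels followed Dbi most closely from library to library within the genotypes were looked for among 11330 genes with a mean of at least 5 CPM, by Pearson's r of log2 CPM after the mean of each genotype had been subtracted. Over 8 libraries these were Tspan6 (0.993), Ebna1bp2 (0.992), Hmgn3 (0.985), Rps19bp1 (0.985) and Iqcc (0.984). Without WT replicate 1, over 7 libraries, they were Snapc3 (0.995), Recql (0.988), Ppcdc (0.988), Hmgn3 (0.981) and Sec22c (0.981). Hmgn3, a nucleosome-binding protein, is the 1 gene named in both. Its log2 fold change between genotypes was -0.11 (adjusted p = 0.812 in edgeR). The libraries share their depth and their length trend across all genes, and the highest values of so many genes are high in any such search. Of the family, Acbd6 had r = 0.65 with Dbi over 8 libraries and -0.618 without WT replicate 1, Acbd3 had -0.687 and -0.237, Acbd4 had 0.5 and -0.0573, and Acbd5 had 0.0245 and 0.155.

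The pathway of Dbi was described through lists of the genes that make and use acyl-CoA. No gene of any list passed an adjusted p under 0.05 in edgeR, DESeq2 or limma-voom. At an unadjusted p under 0.05, 2.52% of all genes tested were lower and 3.0% higher in the libraries labelled ErbB4-/-, and the median log2 fold change over all genes was -0.002, with 49.2% higher. The other acyl-CoA-binding domain genes gave 1 tested gene, Eci2, an enoyl-CoA isomerase, at 72.6 ± 5.57 CPM in WT and 71.8 ± 1.03 CPM in the libraries labelled ErbB4-/- (SD, n = 4 each). Eci3 and the testis gene Dbil5 were too low to test.

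Genes that make acyl-CoA were about evenly split. Of 14 acyl-CoA synthetases and fatty acid transport proteins, 6 had a positive and 8 a negative log2 fold change, with a median of -0.02 and none at an unadjusted p under 0.05. The pair with the smallest p were Acsl5, a long-chain synthetase (-0.14, SE 0.0918), and Slc27a6, a fatty acid transporter (0.44, SE 0.297). Of 8 acyl-CoA thioesterases, which hydrolyse acyl-CoA, 5 were positive and 3 negative, with a median of 0.02. Acot2, in mitochondria, had 0.26 (SE 0.171) and Acot11 had 0.16 (SE 0.168), and without WT replicate 1 the median of the list was 0.13.

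In the list of acyl-CoA use in mitochondria and peroxisomes, which holds carnitine shuttle and beta-oxidation genes, 18 of 22 tested genes had a negative log2 fold change, with a median of -0.07. Of these 22, 2 were lower at an unadjusted p under 0.05, and both were acyl-CoA dehydrogenases, which catalyse the first step of beta-oxidation. Acads, for short chains, was at 21.0, 19.1, 18.9 and 21.2 CPM in WT and at 16.6, 17.3, 17.1 and 17.9 CPM in the libraries labelled ErbB4-/- (log2 fold change -0.22, SE 0.0738, adjusted p = 0.81 in edgeR). Acadl, for long chains, was at 20.9, 18.8, 18.5 and 17.8 CPM in WT and at 15.9, 17.2, 17.6 and 15.7 CPM in the libraries labelled ErbB4-/- (-0.19, SE 0.0802, adjusted p = 0.81 in edgeR). In both genes every library labelled ErbB4-/- was below every WT library, as in 1.48% of all genes tested, and neither passed the adjusted threshold. Without WT replicate 1, Acads was the 1 gene of the list at an unadjusted p under 0.05 and the median was -0.03.

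Among the 16 tested genes of fatty acid elongation and ceramide synthesis, 13 had a positive log2 fold change, with a median of 0.04 and none at an unadjusted p under 0.05. The elongases Elovl2 (0.06, SE 0.05) and Elovl4 (0.07, SE 0.0612) had the smallest p. The organelle partners of Acbd3, Acbd4 and Acbd5 gave 12 tested genes, 5 positive and 7 negative, with a median of -0.02. The mitochondrial and peroxisomal fission factor Fis1 had -0.14 (SE 0.101) and the phosphatase Ppm1l 0.12 (SE 0.128). Golgb1, which encodes giantin, had 0.04 (SE 0.099), Pi4kb 0.03 (SE 0.0529), Vapa -0.01 (SE 0.0762) and Vapb 0.03 (SE 0.049), the last 2 being the endoplasmic reticulum anchors of the peroxisomal tethers.

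On the receptor side, the list of Tspo partners and neurosteroid synthesis gave 16 tested genes, 13 of them negative, with a median of -0.05. The median was -0.01 without WT replicate 1 and -0.09 without WT replicate 2. The adenine nucleotide translocase gene Slc25a5 was the 1 gene at an unadjusted p under 0.05 in edgeR (129 ± 12.5 CPM in WT and 115 ± 6.79 CPM in the libraries labelled ErbB4-/-, SD, n = 4 each, adjusted p = 0.81 in edgeR). There was none in DESeq2, in limma-voom, with the length trend removed or without WT replicate 1. Fdx1, which passes electrons to the steroid side-chain cleavage enzyme, had -0.17 (SE 0.117). That enzyme's own gene, Cyp11a1, was at 0.287 ± 0.122 CPM in WT and 0.392 ± 0.127 CPM in the libraries labelled ErbB4-/- (SD, n = 4 each), and the voltage-dependent anion channel gene Vdac1 was at 308 ± 16.8 and 297 ± 7.26 CPM. Of the 14 tested GABA-A receptor subunit genes, 12 had a positive log2 fold change, with a median of 0.16. Gabra5 was at 27.5, 29.6, 25 and 25.8 CPM in WT and at 34.7, 33.1, 30.3 and 27.7 CPM in the libraries labelled ErbB4-/-, with overlapping groups. Its log2 fold change was 0.22 (SE 0.0866), at an unadjusted p under 0.05 but an adjusted p of 0.81 in edgeR. Without WT replicate 1, Gabra5 was still at an unadjusted p under 0.05 and the median of the list was 0.1. Without WT replicate 2 the median was 0.26.

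**Figure D4:**
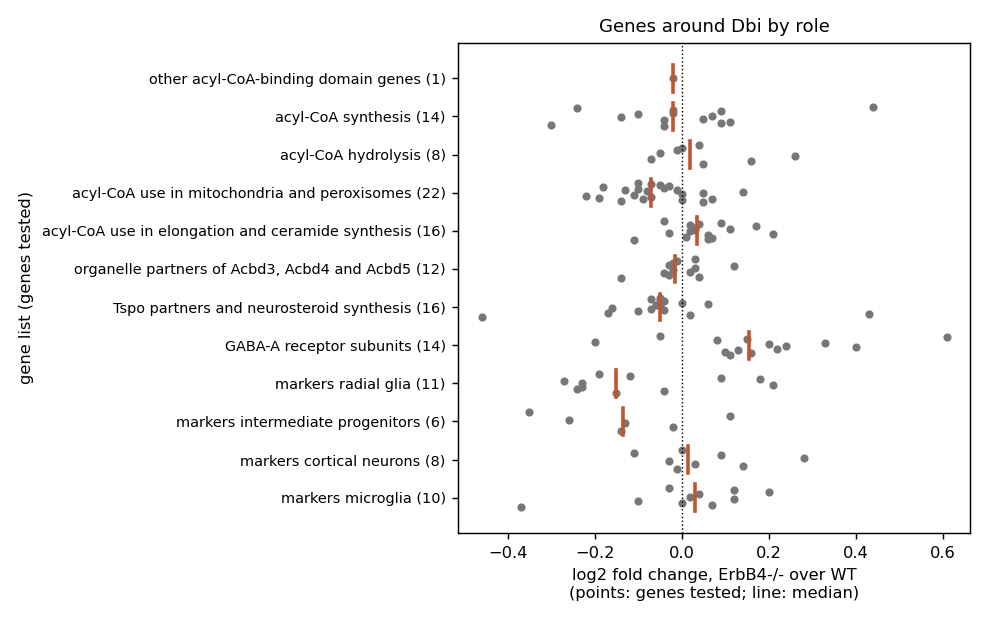
Log2 fold changes in libraries labelled ErbB4-/- over WT (horizontal axis) for the tested genes of the 8 pathway lists and 4 marker lists (points; number tested in brackets on the vertical axis), with an orange line at the median of the list. Medians run from -0.15 for radial glia markers to 0.16 for GABA-A receptor subunits, and no point passed an adjusted p under 0.05.

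Markers of the cells that carry Dbi were read beside it, because in bulk tissue fewer cells of a type and less RNA per cell cannot be told apart. All defining markers of radial glia, intermediate progenitors and cortical neurons were present. Of 11 radial glia markers, 8 had a negative log2 fold change, with a median of -0.15, and 4 were lower at an unadjusted p under 0.05: Pax6 (102 ± 8.51 CPM in WT, 84.4 ± 8.22 CPM in the libraries labelled ErbB4-/-, SD, n = 4 each), Hes1 (-0.24, SE 0.0913), Nes (-0.23, SE 0.0861) and Vim (-0.19, SE 0.0763). Their adjusted p was 0.81 in edgeR and their genotypes overlapped. The summed level of the list was 2310 to 2830 CPM in WT and 2360 to 2520 CPM in the libraries labelled ErbB4-/-. Fabp7, a fatty acid binding protein of radial glia, was at 730, 460, 533 and 503 CPM in WT and at 540, 553, 532 and 533 CPM in the libraries labelled ErbB4-/-, highest in WT replicate 1 as Dbi was. Without WT replicate 1, Hes1, Nes and Pax6 were lower and Fabp7 and Hopx higher at an unadjusted p under 0.05, so that Fabp7 then differed in the direction opposite to Dbi. The median of the list was then -0.12. With the length trend removed, Nes, Pax6 and Vim were lower and Hopx higher at an unadjusted p under 0.05, and Hes1 no longer passed.

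Of 6 intermediate progenitor markers, 5 were negative, with a median of -0.14, and Neurog2 (-0.35, SE 0.112) and Gadd45g (-0.26, SE 0.119) were lower at an unadjusted p under 0.05. Gadd45g was no longer so in limma-voom, with the length trend removed or without WT replicate 1, and in the last case Insm1 was higher at an unadjusted p under 0.05. The median was -0.22 without the library labelled ErbB4-/- replicate 4, -0.08 without replicate 2 of that group and -0.23 with Xist as a covariate. The list's summed level was 1010 to 1200 CPM in WT and 948 to 1120 CPM in the libraries labelled ErbB4-/-. Cortical neuron markers had a median of 0.02 over 8 genes and summed to 8770 to 8980 CPM in WT and 9000 to 9480 CPM in the libraries labelled ErbB4-/-. These ranges did not overlap but nearly met, and the genotypes overlapped in each of the 8 genes. Microglia, in which Tspo is known to be high, had 10 tested markers with a median of 0.03, none at an unadjusted p under 0.05, and a summed level of 56.6 to 66.6 CPM in WT and 56.4 to 67.2 CPM in the libraries labelled ErbB4-/-. The part of these cell types in the level of Dbi was not tested.

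Markers of other cell types that the tissue could hold were also summed. Endothelial and pericyte markers summed to 181 to 200 CPM in WT and 187 to 201 CPM in the libraries labelled ErbB4-/-, and meningeal fibroblast markers to 67.2 to 73.0 and 68.9 to 94.6 CPM, with medians of 0.03 and 0.04. Pdgfrb was the 1 gene of the 9 endothelial and pericyte markers whose genotypes did not overlap (0.18, SE 0.084, unadjusted p = 0.0559 and adjusted p = 0.81 in edgeR), a pattern in the higher direction that 1.86% of all genes tested had. Red blood cell markers summed to 149 to 224 CPM in WT and 143 to 171 CPM in the libraries labelled ErbB4-/-, with Hba-a1, Hba-a2 and Hbb-b2 at 0 reads in all libraries. The embryonic globins Hba-x (-1.23, SE 0.313) and Hbb-y (-1.72, SE 0.453) were lower at an unadjusted p under 0.05, but their genotypes overlapped. The library labelled ErbB4-/- replicate 4 was at 5.08 CPM of Hba-x and 18.3 CPM of Hbb-y, above WT replicate 4 at 4.87 and 13.9 CPM. The other libraries labelled ErbB4-/- were at 1.6 to 2.48 CPM of Hba-x and 3.69 to 6.74 CPM of Hbb-y. These were below every WT library, so the overlap in both genes came from replicate 4 of that group. Interneuron and ganglionic eminence markers summed to 568 to 745 CPM in WT and 545 to 745 CPM in the libraries labelled ErbB4-/-. Their median log2 fold change was -0.02, and Sst (-0.23, SE 0.097) was at an unadjusted p under 0.05, but no longer without WT replicate 1 or with the length trend removed.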

How the data were processed

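Dorsal cortex RNA from 4 WT and 4 ErbB4-/- mouse embryos was analysed, grouped by the labels. The authors made polyA libraries that do not keep the strand, sequenced single 50-base reads, aligned the reads to mm9 by HISAT and tallied each gene's reads by HTSeq-count. The deposited files hold these raw counts. Versions and the treatment of reads with several matches are not given in the sources used here. A further table holds the authors' own DESeq2 comparison and was not used. Counts were analysed with edgeR 4.0.16 in R 4.3.3: filterByExpr (minimum count 10, minimum total 15), TMM normalization, quasi-likelihood fit and Benjamini-Hochberg adjustment over 14696 genes, threshold 0.05. The common biological coefficient of variation was 10.7%. No pair of libraries in a group agreed within sampling noise. Sequences and promoter windows came from the NCBIM37 genome with its GENCODE vM1 annotation. Genes renamed since (the ceramide synthases, for example) were looked up under the older symbols in the files. Alternatives were DESeq2 1.42.0 and limma-voom (limma 3.58.1) after the same filter, 2 other normalizations, 2 other filters, a replicate block, Xist as a covariate, removal of the length trend, and each library left out. The procedure was tested on simulated data. The 7 genes and all lists were chosen with earlier results of these data known. Named were all 7 genes, up to 4 genes a list at an unadjusted p under 0.05 or otherwise the 2 with the smallest p, the 5 tested neighbours on each side and the 5 genes most like Dbi. Tspo2, Cyp11a1, Vdac1, Fabp7, Golgb1, Pi4kb, Vapa and Vapb were added for their roles, after their values were seen. Some genes that this rule selects are not reported here.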

Additional observations from a re-analysis of the deposited data

Results flagged for a closer look

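The 68 groups of 4 libraries examined included those of the 7 genes, the neighbours of Dbi and the summed lists. Of these 68, 9 had a library whose distance from the nearest of the others was above Dixon's 95% critical value, which chance gives in about 1 group in 20. Among the family this was Acbd4 in the library labelled ErbB4-/- replicate 4 (7.5 CPM, the others 9.58 to 10). 3110009E18Rik, beside Dbi, was far from the others in WT replicate 1 (4.35 CPM, the others 2.89 to 3.08) and in the library labelled ErbB4-/- replicate 2 (2.59 CPM, the others 3.51 to 3.61). The Tspo partners and neurosteroid genes summed to 1510 CPM in WT replicate 1, against 1250 to 1270 in the others. Radial glia markers summed to 2520 CPM in the library labelled ErbB4-/- replicate 4, against 2360 to 2380. Endothelial and pericyte markers summed to 201 CPM in the library labelled ErbB4-/- replicate 2, against 187 in the others. Red blood cell markers summed to 224 CPM in WT replicate 1, against 149 to 162, and to 143 CPM in the library labelled ErbB4-/- replicate 4, against 170 to 171. Meningeal fibroblast markers summed to 94.6 CPM in the library labelled ErbB4-/- replicate 3, against 68.9 to 71.1. Dbi itself was not among them.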

How the results depend on the processing

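The log2 fold change of Dbi was between -0.64 and -0.37 with each library left out and between -0.54 and -0.41 under the other settings. None of Acbd3, Acbd4, Acbd5, Acbd6 and Tspo was called in any of 17 alternatives, with adjusted p-values from 0.574 to 1.0. Leaving out a library moved Acbd4 between -0.02 and 0.11, Acbd5 between -0.05 and 0.02 and Acbd6 between -0.13 and 0.08, so their signs are not settled. Tspo ran from -0.30 (without WT replicate 2) to -0.06 with a library left out and had -0.37 with Xist as a covariate. The count of genes called over all genes was 4, and became 24 with DESeq2, 2 with the length trend removed, 1 with relative log expression, with upper quartile scaling and with Xist as a covariate, and between 1 and 13 with a library left out, the highest without WT replicate 4. The cause was not tested. With the replicate number as a block, 1 gene was called and Dbi had -0.51. The numbers are not known to pair the samples: same-numbered libraries correlated at 0.084, 0.135, 0.048 and 0.024, and only WT replicates 1 and 2 correlated best with their own number. The median of acyl-CoA hydrolysis moved to 0.13 without WT replicate 1, that of red blood cell markers ran from -0.42 to 0.16, and that of interneuron markers was 0.26 with Xist as a covariate. Acbd7 had 1 to 12 reads a library, too few for the fit.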
